A study of Mus musculus with 12 samples.

Results

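The respiratory chain of heart mitochondria is built from subunits encoded both in the nucleus and in the mitochondrial genome, and the nuclear-encoded subunits were described here in the ventricles of humanized phospholamban mice. Members were the genes whose symbols carry the names of subunits of complex I (Ndufa, Ndufb, Ndufc, Ndufs and Ndufv), complex II (Sdha to Sdhd), complex III (Uqcr and Cyc1), cytochrome c (Cycs), complex IV (Cox4 to Cox8) and the ATP synthase, complex V (Atp5), provided that their level averaged 0.5 TPM or more in the 12 samples. TPM is a transcript level divided by transcript length and scaled to a fixed total per sample, so that levels of different genes can be set side by side. Of 86 symbols that matched, 84 passed, and Cox8c and Cox7b2 lay below that mean. A further 6 symbols that mark pseudogenes were left out. The 84 members stood among 12526 genes tested and 33641 genes listed. They comprised 35 genes of complex I, 4 of complex II, 9 of complex III, Cycs, 18 of complex IV and 15 of complex V. Atp5s and Atp5sl share the name of the ATP synthase genes but are not among its standard subunits, so they were kept apart.

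The study compared left ventricle (LV) and right ventricle (RV) of mice in which the human PLN coding sequence replaced the mouse one, in order to ask how the R14del mutation of phospholamban affects each ventricle. WT-PLN mice carried the human wild-type sequence, and R14del-PLN mice, made by crossing the homozygous lines, carried 1 human copy with arginine 14 deleted and 1 human wild-type copy. All mice were 12 to 14 weeks old and labelled C57BL/6J. The methods describe males of a hybrid line from 129/Sv-CP and C57Bl/6J chimeras bred to Sox2-Cre mice, so the WT-PLN controls carry a humanized gene too, and their background is mixed. Each of the 4 groups held 3 samples, and none received a treatment. The values came from whole ventricular tissue, in which fewer cells of a type and less RNA per cell cannot be told apart.

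Complex I takes electrons from NADH and complex II takes them from succinate. Ubiquinone carries them to complex III, cytochrome c carries them on to complex IV, which reduces oxygen, and the proton gradient built on the way drives ATP synthesis by complex V. The beating heart depends on this pathway for most of its ATP, and its cardiomyocytes use muscle isoforms of several complex IV subunits.

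Several libraries stood apart from their groups. Pln ranged from 1559 to 1963 TPM over the 12 samples, and a table of gene levels does not show the deleted codon. Between 37.3% and 54.5% of all TPM belonged to the 13 mitochondrially encoded genes, with the lowest share in R14del-PLN LV replicate 3 and the highest in R14del-PLN RV replicate 3, whose file carries a different sequencing run number from the other 11. The 4 Y-linked genes summed to 0.284 TPM in WT-PLN LV replicate 1 and to 0.250 TPM in WT-PLN RV replicate 1. In the other 10 samples they summed to 43.5 to 63.7 TPM. The near absence in the WT-PLN replicate 1 samples is at odds with the males that the methods describe, and its reason was not tested. Both samples enter the genotype comparisons and RV against LV of WT-PLN hearts. R14del-PLN LV replicate 3 had the highest level of the 12 samples for 58 of the 84 members. R14del-PLN RV replicate 2 had the lowest for 40 members, and R14del-PLN RV replicate 3 for 34. In R14del-PLN RV replicate 2 the members also moved apart from each other. The interquartile range of their log2 deviations from the 12-sample median was 0.43 there, against 0.0551 to 0.182 in the other samples, and the same range over the 581 genes above 100 TPM was 0.456 against 0.0988 to 0.23. Cox5b (393.6 TPM) and Cox5a (456 TPM), both structural subunits of complex IV, were the members farthest below their medians in that library, while Ndufa12 (281 TPM) and Ndufv1 (446 TPM) of complex I were the farthest above. The level of Ndufa12 is uncertain, since a near-identical copy was listed beside it. Cox5a and Ndufv1 were chosen after their values were seen.

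**Figure D1:**
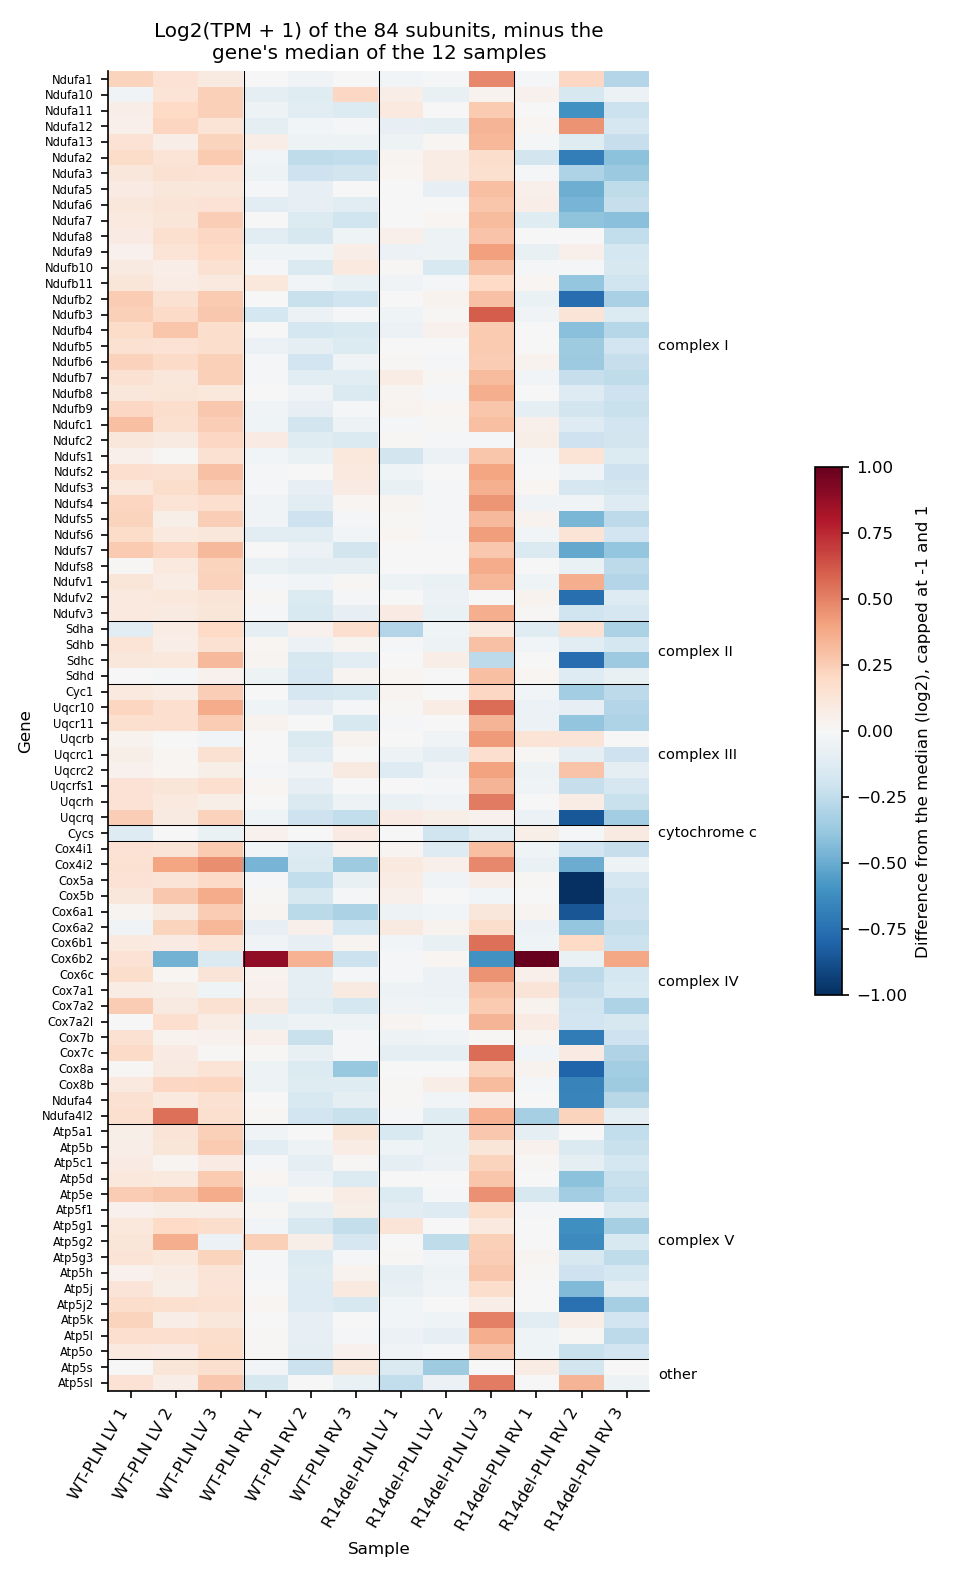
Log2(TPM + 1) of the 84 members (rows, by complex) in the 12 samples (columns), minus each gene's median over the samples, with red above and blue below and colours capped at 1 log2 unit. R14del-PLN LV replicate 3 is highest for 58 members, and R14del-PLN RV replicate 2 holds both strongly low members (Cox5b at 393.6 TPM) and high ones (Ndufa12 at 281 TPM).

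The subunits were among the most abundant nuclear transcripts of the ventricle. Their median mean level was 445 TPM, against 5.92 TPM over all genes tested, 73 members were above 100 TPM and 12 were above 1000 TPM. Together they made up 3.95% to 5.6% of all TPM. Complex V held 31.5% of the summed level of the members, complex IV 27.7%, complex I 24.7%, complex III 12.5%, complex II 3.3% and Cycs 0.185%. The genes lie on 19 chromosomes, with 3 on X, so the members share no common locus.

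Within a complex the levels of the genes varied least in complex III and most in complex IV. In complex III, which passes electrons from ubiquinol to cytochrome c, levels ran from 441 TPM for Uqcrfs1, the Rieske iron-sulfur protein, to 977 TPM for Uqcrh, the hinge subunit, a ratio of 2.22. In complex II the range was 214 TPM for Sdhc, a membrane anchor, to 588 TPM for Sdhb, the iron-sulfur subunit. In complex I the lowest member was Ndufb4 at 52.8 TPM and the highest was Ndufb8 at 781 TPM, both accessory subunits of the membrane arm. The 7 nuclear-encoded core subunits of complex I, which carry its flavin and iron-sulfur clusters or form the quinone site, had a median of 336 TPM (166 to 502 TPM), inside the range of the 28 other members, whose median was 285 TPM. In complex V the catalytic beta subunit gene Atp5b was the highest of all members at 2415 TPM, followed within the complex by Atp5a1 (alpha subunit) at 1605 TPM and 2 genes for the membrane ring, Atp5g3 at 1418 TPM and Atp5g1 at 1293 TPM. Complex IV held both Cox4i1 at 1559 TPM and Cox6b2, a testis isoform, at 1.68 TPM.

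**Figure D2:**
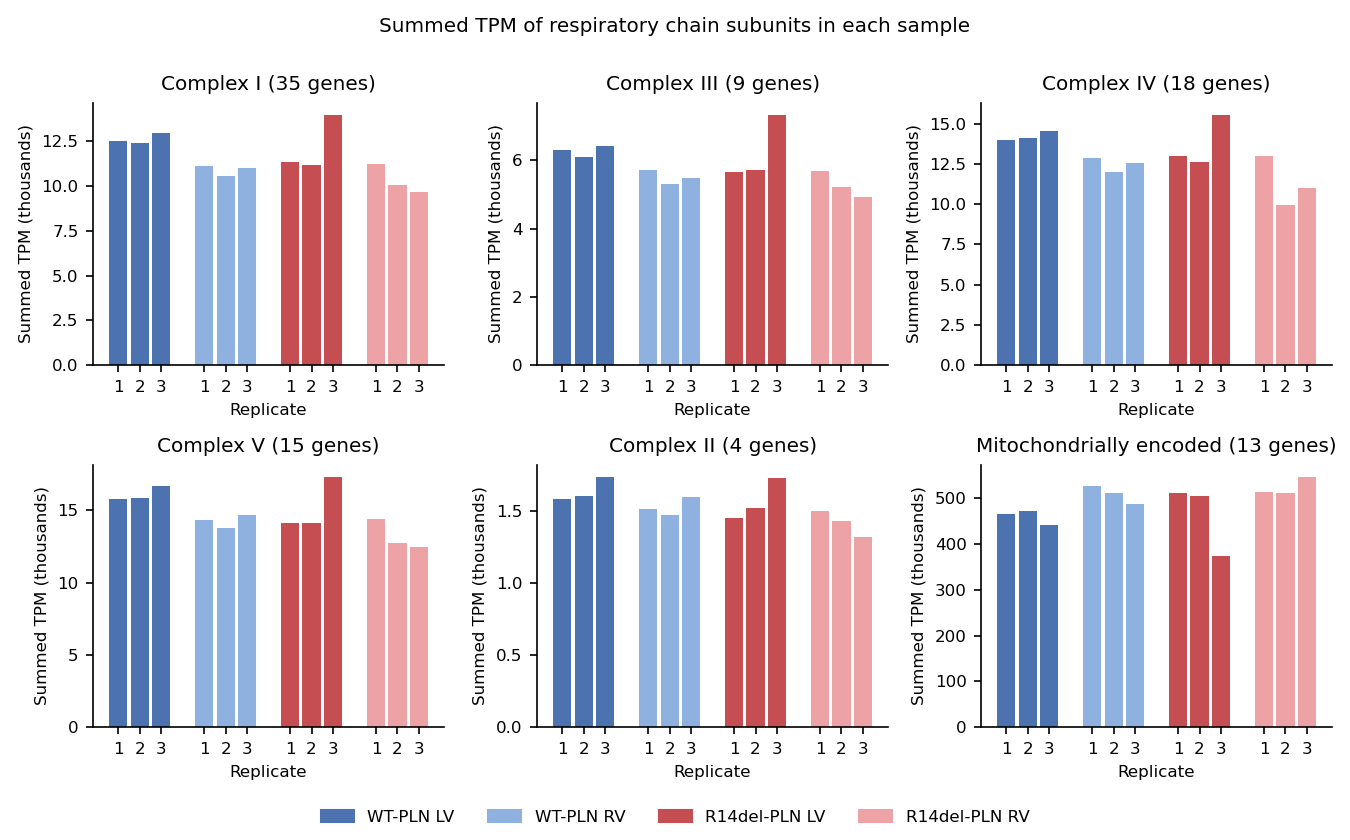
Summed TPM (axis in units of 1000 TPM) of the members of each complex and of the mitochondrially encoded genes, 1 bar per sample, replicates 1 to 3 of each group. Complex I sums are 12418 to 12957 TPM in the 3 WT-PLN LV samples and 10583 to 11139 TPM in the 3 WT-PLN RV samples, and R14del-PLN LV replicate 3 is highest for complexes I, III, IV and V and lowest for the mitochondrially encoded genes.

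For 7 members, the level listed under the gene is only a part of what may come from it, because near-identical copies of the transcript elsewhere in the genome were listed beside it. Of the 84 members, 24 had an annotated transcript elsewhere with at least 95% identity over at least 80% of the shorter transcript, and 22 of them had such copies in the table, 43 copies in all. In 7 members a copy held more than 1% of the member's own level. Cycs, the electron carrier between complexes III and IV, was listed at 75.9 to 92.9 TPM, while its copies were listed at 688 to 982 TPM and held 88.6% to 92.4% of the sum. Atp5g2, the third gene for the ring subunit, was listed at 8.95 to 18.8 TPM and its copies at 175 to 335 TPM. The low listed levels of Cycs and Atp5g2 among the members are therefore uncertain, and so are the levels of Ndufs5, Ndufa12, Cox7c, Cox7a2l and Atp5l.

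The sequences show how little separates such pairs, and each is the first 60 coding bases or, where a difference falls later, the 60 bases that hold it, taken from GENCODE M21 transcripts on GRCm38. Positions are counted from 1 at the A of the member's start codon, capitals mark the bases that differ, and a substitution gives the member's base first. Cycs (chr6:50562563-50566538, minus strand) and the processed pseudogene Gm10108 (chr5:13121448-13121766, minus strand) differed at G4A and G44A over 318 coding bases, and Gm10053 (chr19:24875686-24876631, plus strand), annotated as protein coding, was identical to Cycs over all 318.
Cycs, bases 1 to 60: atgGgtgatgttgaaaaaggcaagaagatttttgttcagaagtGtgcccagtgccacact
Gm10108, the same bases: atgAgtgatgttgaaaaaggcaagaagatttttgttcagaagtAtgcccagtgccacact
Ndufs5 (chr4:123712710-123718202, minus strand), an accessory subunit of complex I, and the processed pseudogene BC002163 (chr16:42955631-42955949, plus strand) differed at T81C and A105G over 319 aligned bases.
Ndufs5, bases 46 to 105: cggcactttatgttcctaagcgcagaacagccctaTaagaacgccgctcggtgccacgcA
BC002163, the same bases: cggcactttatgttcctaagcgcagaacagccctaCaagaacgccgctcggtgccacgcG
Ndufa12 (chr10:94198720-94221443, plus strand) and Gm15920 (chr5:130188395-130188796, plus strand) differed at A135G and T414C over 402 aligned bases.
Ndufa12, bases 76 to 135: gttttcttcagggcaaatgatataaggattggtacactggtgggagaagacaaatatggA
Gm15920, the same bases: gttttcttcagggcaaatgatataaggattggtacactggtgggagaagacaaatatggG
Cox7a2l (chr17:83501918-83517330, minus strand), which takes part in supercomplex assembly, and Gm6969 (chr12:24638669-24639010, minus strand) differed at T214A and C303T and by 1 gap over 336 bases.
Cox7a2l, bases 214 to 273: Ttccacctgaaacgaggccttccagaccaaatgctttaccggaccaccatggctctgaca
Gm6969, the same bases: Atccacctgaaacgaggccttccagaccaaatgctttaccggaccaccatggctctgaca
The remaining 3 pairs were identical over the coding bases aligned, which were 192 for Cox7c and Gm12338, 441 for Atp5g2 and Gm10175, and 309 for Atp5l and Gm10221. The start of Cox7c (chr13:86044816-86046904, minus strand), a small complex IV subunit, stands for these 3, and its copy Gm12338 (chr11:75599763-75599954, minus strand) has the same letters.
Cox7c and Gm12338, bases 1 to 60: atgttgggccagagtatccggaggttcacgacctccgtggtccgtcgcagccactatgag

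The split between a member and its copies differed between libraries for several of these 7 members. Cox7c was listed at 542 to 765 TPM in 11 samples and its copy Gm12338 at 845 to 1138 TPM in 10. In R14del-PLN RV replicate 2, Gm12338 was listed at 0 while Cox7c was at 709 TPM. In R14del-PLN LV replicate 3, Gm12338 was at 206 TPM and Cox7c at 985 TPM, its highest level. Gm10108 was likewise listed at 0 in R14del-PLN RV replicate 2 and at 234 to 332 TPM in the other 11 samples. For Ndufa12, the copies held 36% of the sum in R14del-PLN RV replicate 2, against 57.5% to 64.3% elsewhere, and for Atp5l 9.75% there and 19.7% in R14del-PLN LV replicate 3, against 30.5% to 37.7% elsewhere. Cox7a2l followed another order, with 28.5% of the sum in its copy in R14del-PLN LV replicate 1, 32.9% in LV replicate 2, 33.7% in RV replicate 1 and 39.8% in RV replicate 2, against 43.0% to 50.3% in the other 8 samples. With each copy added to its member, Ndufa12 was lowest in R14del-PLN RV replicate 2 (439 TPM), the library in which its own level was highest.

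**Figure D3:**
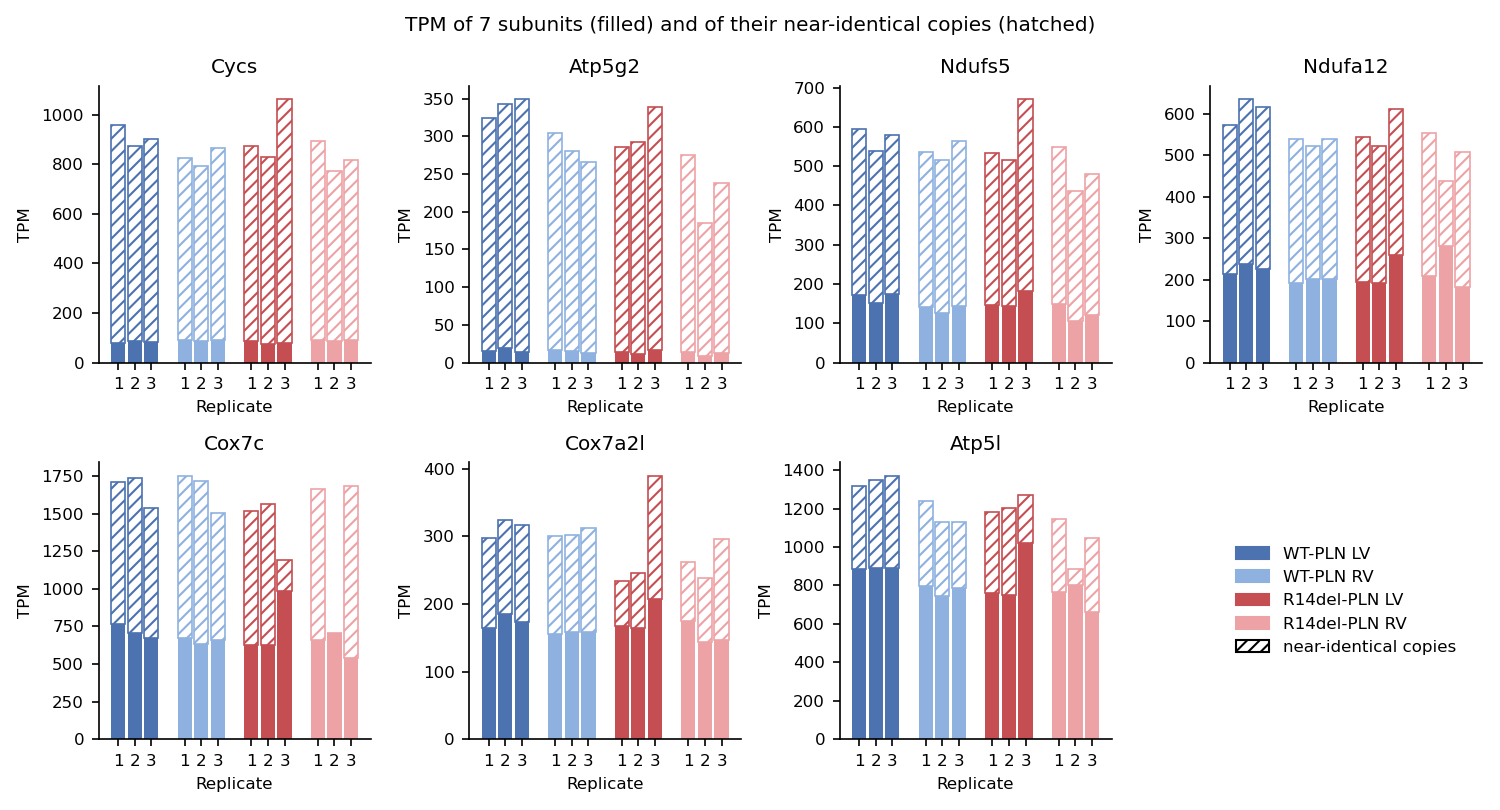
TPM of 7 members (filled bars) and of their near-identical copies (hatched, stacked on top) in the 12 samples, replicates 1 to 3 of each group. The copies of Cycs hold 88.6% to 92.4% of the stack in every sample, while those of Cox7c are listed at 0 in R14del-PLN RV replicate 2.

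Where a subunit has a striated muscle isoform and a ubiquitous one, the muscle isoform was the higher in every sample. The muscle isoform Cox6a2 held 94.6% to 96.4% of the Cox6a pair, Cox8b held 89.9% to 91.7% of the Cox8 pair, and Cox7a1 held 77.5% to 82.5% of the Cox7a pair. Cox6a2 was listed at 1105 to 1817 TPM and Cox6a1 at 41.5 to 90.8 TPM. The shares of Cox6a2 and Cox8b overlapped among the 4 groups. The share of Cox7a1 was 77.5% to 79.3% in WT-PLN LV, below the 79.5% to 80.02% of R14del-PLN LV and the 79.4% to 81.5% of R14del-PLN RV, and overlapped with the 79.1% to 82.5% of WT-PLN RV. The gap between the genotypes in LV was smaller than the spread within WT-PLN LV, and no test was made of a share. Cox4i1 held 99.5% to 99.7% of the Cox4 pair, and Cox4i2, an isoform of lung and of vessel mural cells, held 0.298% to 0.534%. Cox6b1 held 99.6% or more of the Cox6b pair. Ndufa4, a subunit of complex IV despite its name, held 98.5% to 99.4% over Ndufa4l2. The ring subunit, whose 3 genes encode the same mature protein, was split between Atp5g3 (48.9% to 58.9%) and Atp5g1 (40.7% to 50.6%), with 0.42% to 0.636% listed under Atp5g2. The highest Atp5g3 share was that of R14del-PLN RV replicate 2, and the other 11 samples lay at 48.9% to 55.0%.

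**Figure D4:**
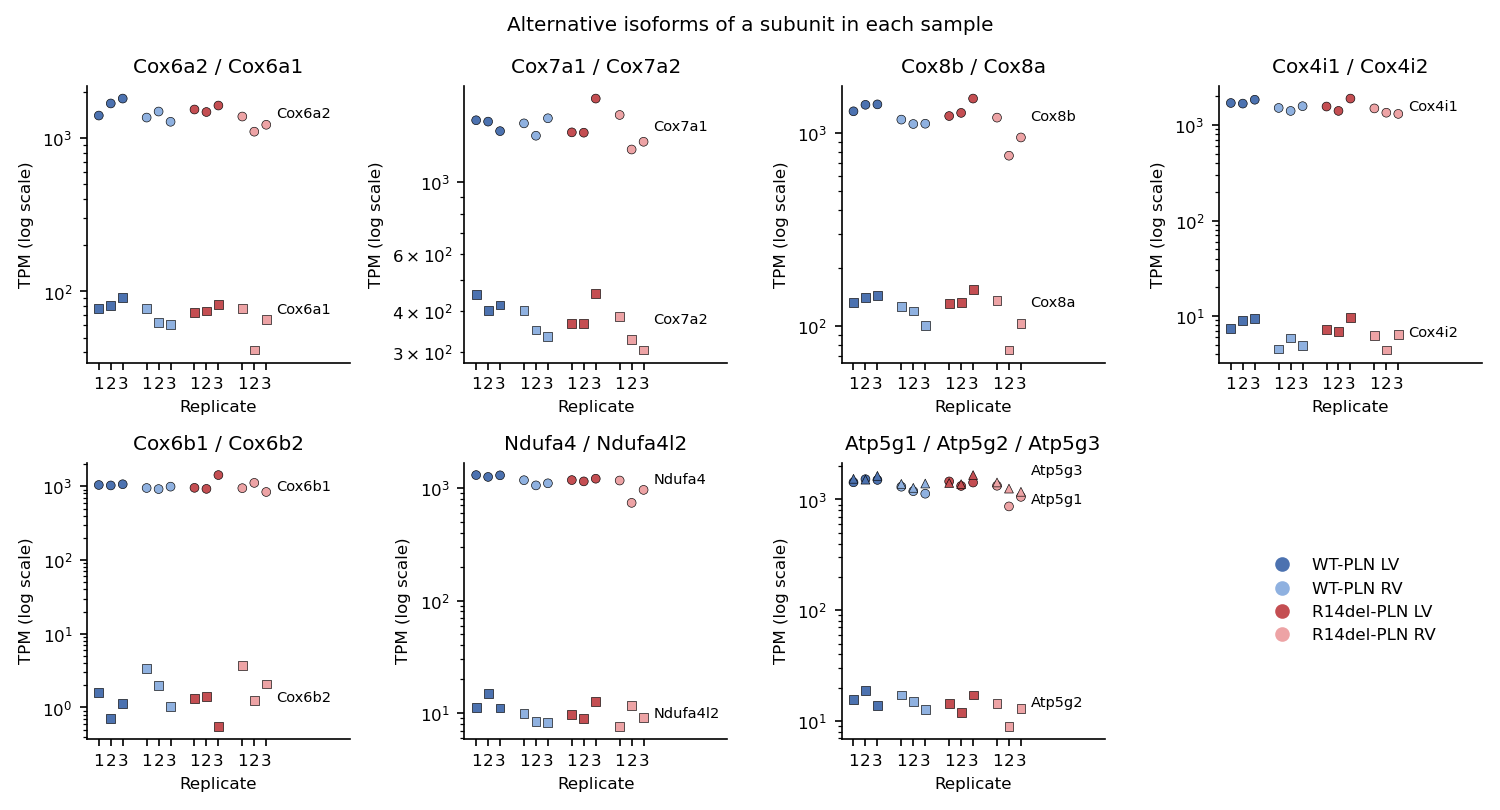
TPM (log scale) of the alternative isoforms of 7 subunits, 1 point per sample, coloured by group, with replicates 1 to 3 of each group from left to right. The muscle isoforms Cox6a2, Cox8b and Cox7a1 lie above their ubiquitous partners in all 12 samples, with Cox6a2 at 1105 to 1817 TPM and Cox6a1 at 41.5 to 90.8 TPM.

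The first comparison asked whether R14del-PLN changed the subunits in LV. No member passed the test (limma on log2(TPM + 1), with a 1.5-fold change and a Benjamini-Hochberg adjusted p up to 0.05 over all genes required), against 65 of 12526 genes or 0.519%. At an unadjusted p under 0.05 there was also no member in either direction, against 7.85% of genes lower and 1.76% higher. The members' median log2 fold change was -0.068, beside -0.086 over all genes, and 70 members lay below 0 and 14 above. The direction depended on the scaling. With mitochondrially encoded genes removed the medians of members and all genes were -0.051 and -0.080, with 68 members below 0, whereas quantile normalization gave 0.03 and 0.014 and upper-quartile scaling 0.063 and 0.020. The smallest adjusted p of a member was 0.579. The medians were -0.056 for complex I, -0.089 for complex II, -0.037 for complex III, -0.084 for complex IV and -0.085 for complex V. Precision was enough to place 80 of the 84 members' 95% intervals inside a 1.5-fold change in either direction.

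Single members showed the same picture in LV. Atp5b was listed at 2518, 2611 and 2871 TPM in WT-PLN LV and at 2325, 2288 and 2604 TPM in R14del-PLN LV. The groups overlapped in 1 sample, R14del-PLN LV replicate 3 (log2 fold change -0.15, SE 0.12, adjusted p = 0.756). Cox4i1, the main isoform of subunit 4 of complex IV, was at 1701, 1676 and 1840 TPM in WT-PLN LV and at 1562, 1406 and 1892 TPM in R14del-PLN LV, where replicate 3 was the highest of the 6. The members farthest from 0 were Atp5s at -0.26 (SE 0.13, adjusted p = 0.579) and Cox5b at -0.25 (SE 0.21, adjusted p = 0.781). Atp5s was at 11.32, 12.4 and 12.8 TPM in WT-PLN LV and at 10.2, 8.62 and 11.35 TPM in R14del-PLN LV, overlapping in 1 sample. Without R14del-PLN LV replicate 3, which held 37.3% mitochondrially encoded TPM, the members' median was -0.157, that of all genes was -0.19, and 12 members (14.3%) had an unadjusted p under 0.05, all lower, against 17.7% of all genes lower. Without R14del-PLN RV replicate 2 as well, which also enters the spread that the fit shares among groups, that number was 22 (26.2%), against 21.3% of all genes. None of them passed the adjusted test, and the smallest adjusted p was then 0.0517.

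In RV, too, no member passed the test, against 34 genes or 0.271%, and none had an unadjusted p under 0.05, against 3.4% of genes lower and 2.82% higher. The members' median was -0.099, beside -0.003 over all genes, with 68 members below 0 and 16 above, and the smallest adjusted p of a member was 0.803. All 15 members of complex V and all 4 of complex II lay below 0, with medians of -0.137 and -0.118. Complex I had 29 of 35 below 0, complex III 6 of 9 and complex IV 14 of 18. The members' median was -0.055 with mitochondrially encoded genes removed, -0.016 with quantile normalization and -0.079 with upper-quartile scaling. The pooled SD of the members' median between single samples of a group was 0.108 on the scale of all TPM. That SD is not the error of a difference between group means, and it was not computed on the other scales. Of the 84 intervals, 75 lay inside a 1.5-fold change.

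Cox5b was the member farthest from 0 in RV, and 1 library set its value. It was listed at 836, 741 and 817 TPM in WT-PLN RV and at 831, 393.6 and 715 TPM in R14del-PLN RV. R14del-PLN RV replicates 2 and 3 were below all WT-PLN samples (log2 fold change -0.37, SE 0.21, adjusted p = 0.934). With each library left out in turn its fold change ran from -0.59 to -0.05. Atp5g2, with most of its sum in copies, followed at -0.30 (SE 0.19, adjusted p = 0.985). Cox8b was at 1171, 1111 and 1115 TPM in WT-PLN RV and at 1199, 762 and 947 TPM in R14del-PLN RV, where replicate 1 was above and the others were below all 3 WT-PLN samples. Without R14del-PLN RV replicate 2 the members' median was -0.055, beside -0.049 over all genes, and without replicate 3, the library with another run number, it was -0.059, beside 0.04. Without replicate 1 it was -0.161, beside -0.004, and 18 members (21.4%) had an unadjusted p under 0.05, all lower, against 4.85% of all genes lower.

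**Figure D5:**
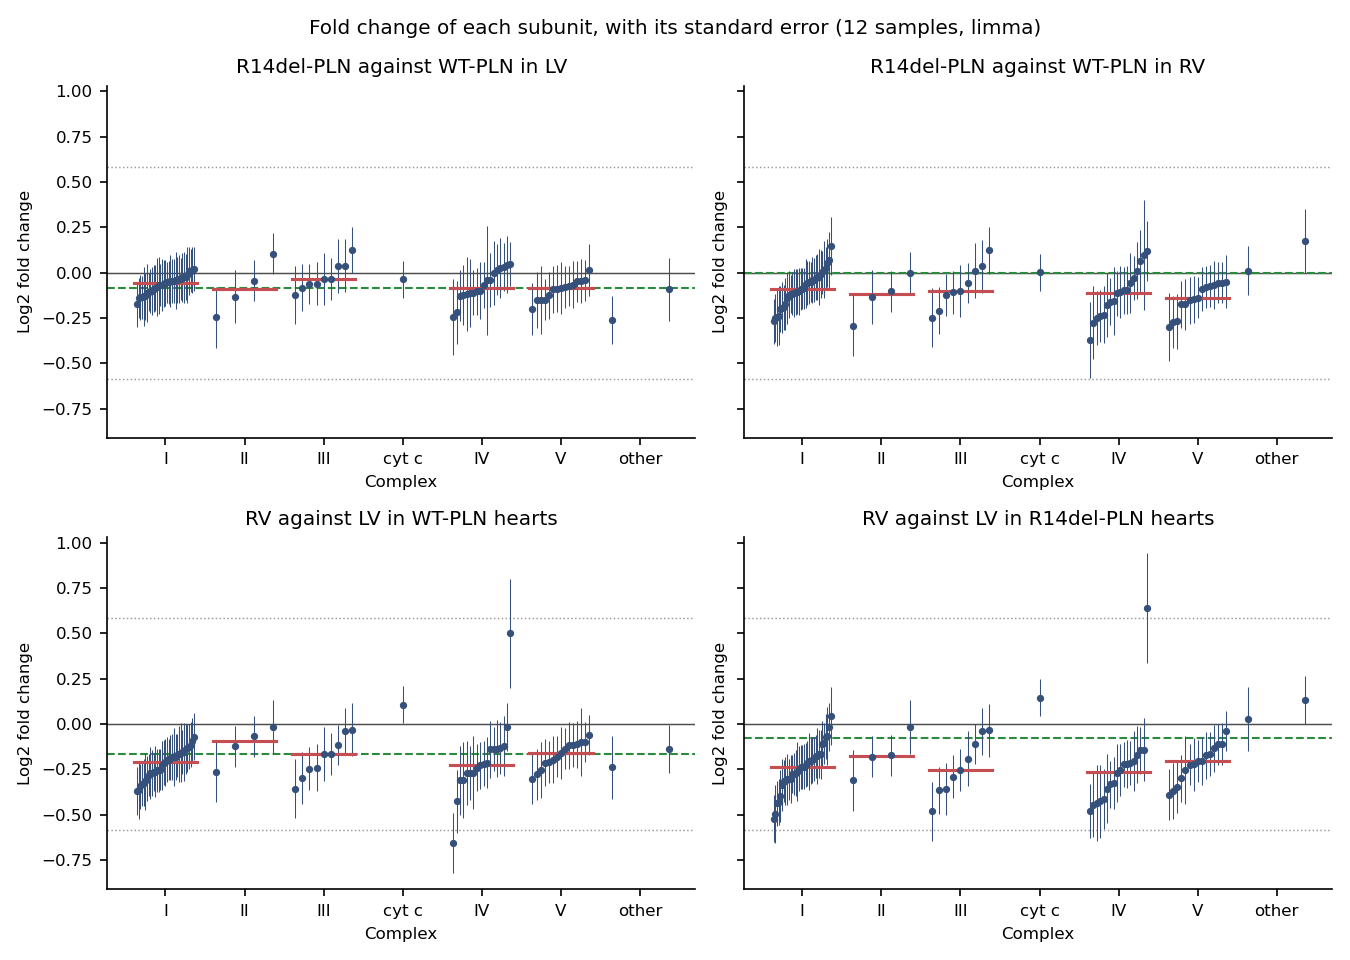
Log2 fold change of each member (points, with the standard error from limma) by complex in the 4 comparisons, sorted within a complex, with red bars at the median of complexes I to V, a green dashed line at the median of all 12526 genes and dotted lines at 1.5-fold. Most members lie within the dotted lines. In RV against LV, 82 of 84 members of WT-PLN hearts and 79 of R14del-PLN hearts are below 0 on the scale of all TPM, which quantile normalization reduces to 37 and 52.

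The third comparison set RV against LV in WT-PLN hearts, and here the members lay lower in RV on the scale of all TPM. Of the 84 members, 82 lay below 0, and the median log2 fold change was -0.196, beside -0.165 over all genes. No member passed the test, and neither did any of the 12526 genes (0%, limma). At an unadjusted p under 0.05, 13 members were lower and 0 higher, against 13.8% of all genes lower and 0.655% higher. In this fit of all 12 samples the 13 are 15.5% of the members, close to the background of all genes. All 35 members of complex I, 9 of complex III, 15 of complex V and 4 of complex II lay below 0, and 17 of 18 of complex IV. Complex I held 10 of the 13, of which 9 were accessory subunits and 1, Ndufs7, a core subunit. The members above 0 were Cycs at 0.11 (SE 0.10), whose copies hold most of its sum, and Cox6b2 at 0.50 (SE 0.30). With copies added, Cycs lay at -0.14 (SE 0.12). Leaving out R14del-PLN libraries changes only the spread that this comparison borrows. Without R14del-PLN LV replicate 3, 26 of 84 members were lower at an unadjusted p under 0.05, against 19.3% of all genes. Without R14del-PLN RV replicate 2 there were 23 of 84, against 15.1%, and without both 49 of 84, against 22.7%. With only the 6 WT-PLN samples fitted there were 51 of 84, against 18.3%. The closeness to the background thus did not hold in these fits. Without single WT-PLN libraries the number was 2 to 12, with 2 at the lowest without RV replicate 2, where 8.98% of all genes were lower. It was 4 without RV replicate 3, 5 without LV replicate 2 or LV replicate 3, 6 without LV replicate 1 and 12 without RV replicate 1. The share of all genes is not given beside these last counts, so they were not read against the background. On other scales, 2 members were lower and 1 higher with mitochondrially encoded genes removed. The counts were 1 and 4 with quantile normalization, and 1 and 2 with upper-quartile scaling. Of all genes, 8.01%, 5.24% and 5.19% were lower on these scales. No member passed the adjusted test in any of these fits.

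Values of single members show the size of these differences. Ndufa2, an accessory subunit of the peripheral arm of complex I, was listed at 301, 291 and 317 TPM in WT-PLN LV and at 259, 223 and 223 TPM in WT-PLN RV (log2 fold change -0.37, SE 0.13, adjusted p = 0.29). The groups did not overlap. Ndufb4 was at 60.05, 63.9 and 59.6 TPM in LV and 52.6, 46.4 and 47.3 TPM in RV, again apart (-0.32, SE 0.13, adjusted p = 0.305). Cox6b2, by contrast, was at 1.61, 0.7 and 1.13 TPM in LV and 3.36, 2.01 and 1.04 TPM in RV, with overlapping groups.

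Cox4i2 had the smallest adjusted p of all members in any of the comparisons. It was listed at 7.44, 9.003 and 9.49 TPM in WT-PLN LV and at 4.51, 5.90 and 4.94 TPM in WT-PLN RV (log2 fold change -0.66, SE 0.16, adjusted p = 0.211), with no overlap. In R14del-PLN hearts it was at 7.16, 6.90 and 9.61 TPM in LV and 6.27, 4.41 and 6.35 TPM in RV (-0.41, SE 0.16, adjusted p = 0.737). Over all alternatives its adjusted p in WT-PLN hearts ran from 0.0517 to 0.727. Ndufa4l2, like Cox4i2 known from pericytes, lay at -0.43 (SE 0.17, adjusted p = 0.307). Ndufa4l2 (10.3 TPM) overlaps Shmt2 (16.1 TPM) on the other strand, and whether reads were counted by strand is not given in the sources used here, so its level is uncertain. Beside these, a list of 6 pericyte genes, added after values were seen, summed to 150 to 188 TPM in WT-PLN LV and 128 to 154 TPM in WT-PLN RV. The 4 endothelial markers, all listed, summed to 80.4 to 104 TPM in WT-PLN LV and 59.9 to 73.8 TPM in WT-PLN RV. Their part in the values of Cox4i2 and Ndufa4l2 was not tested.

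The scale mattered for this comparison, since TPM sums to a fixed total. The mitochondrially encoded genes held 44.0% to 47.3% of TPM in WT-PLN LV and 48.7% to 52.7% in WT-PLN RV. With those 13 genes removed and the rest rescaled, the members' median was -0.0590, beside -0.0595 over all genes, with 59 members below 0. With quantile normalization it was 0.020 and with upper-quartile scaling 0.013, where 37 and 40 members lay below 0 and the median of all genes was 0.005 and 0.004. The lower level in RV thus held on the scale of all TPM and did not hold in direction under these 2 scalings. The summed members were 50288, 50215 and 52541 TPM in WT-PLN LV and 45700, 43270 and 45498 TPM in WT-PLN RV, with no overlap. With the mitochondrially encoded genes removed and the rest rescaled to the same total they were 94241, 95295 and 93897 in LV and 96715, 88736 and 88663 in RV, and the groups overlapped. The ratio of nuclear to mitochondrially encoded TPM was 0.106 to 0.119 in WT-PLN LV and 0.0845 to 0.0935 in WT-PLN RV. This ratio does not depend on the total.

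In R14del-PLN hearts, RV against LV gave a median of -0.223 for the members, beside -0.076 over all genes, with 79 of 84 below 0. No member and no gene (0%) passed the test. At an unadjusted p under 0.05, 28 members (33.3%) were lower and 0 higher, against 6.07% of all genes lower and 0.503% higher. The 28 comprised 14 members of complex I, 5 of complex III, 5 of complex IV and 4 of complex V, with complex medians of -0.236, -0.255, -0.262 and -0.206. The fold changes of the 2 genotypes share no samples, but their p-values share 1 spread estimated from all 12 samples. The 2 sets of members are therefore not independent. Of the 28, 11 (39.3%) were also among the 13 of WT-PLN hearts (84.6% of those). Over all genes the 482 shared were 63.4% and 27.9%.

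The values in R14del-PLN hearts moved with single libraries. Ndufa2 was listed at 271, 279 and 299 TPM in LV and at 233, 164 and 199 TPM in RV, with no overlap (-0.52, SE 0.13, adjusted p = 0.711). Cox8b was at 1222, 1269 and 1505 TPM in LV and at 1199, 762 and 947 TPM in RV, also without overlap (-0.48, SE 0.15, adjusted p = 0.711). Cox6b2 was the member highest above 0, at 0.64 (SE 0.30, adjusted p = 0.762), with 1.33, 1.39 and 0.552 TPM in LV and 3.70, 1.25 and 2.08 TPM in RV. R14del-PLN LV replicate 3 was highest for most members and R14del-PLN RV replicate 2 lowest for many. Without R14del-PLN LV replicate 3, 13 members were lower at an unadjusted p under 0.05, against 2.36% of all genes. Without R14del-PLN RV replicate 2 there were 11 lower and 1 higher, against 5.87% of all genes lower, and without R14del-PLN RV replicate 3 there were 13 lower, against 3.28%. Without R14del-PLN RV replicate 1, the number was larger, at 42 against 6.94%. Without both WT-PLN replicate 1 samples, which enter only the shared spread, it was 17, against 5.19%. Without LV replicate 3 and RV replicate 2 of R14del-PLN together, a setting chosen after values were seen, 5 members were lower, against 2.9% of all genes, and the median was -0.088, beside -0.023 over all genes. With only the 6 R14del-PLN samples fitted there were 7 lower and 1 higher, against 3.28% of all genes lower. The scale moved the counts as well, to 7 lower and 2 higher with mitochondrially encoded genes removed, to 4 and 4 with quantile normalization and to 6 and 0 with upper-quartile scaling, against 2.06%, 4.37% and 4.21% of all genes lower. The medians on these scales were -0.06, -0.028 and -0.126. The pooled SD of 0.108 for the members' median between single samples belongs to the scale of all TPM and is not the error of these medians.

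The interaction asked whether the genotype difference was unlike in the 2 ventricles. No member passed the test, none had an unadjusted p under 0.05, and none of the 12526 genes passed (0%, limma, with 127 genes at an unadjusted p under 0.05). The members' median was -0.045, beside 0.082 over all genes. The members with the smallest interaction p were Atp5s at 0.27 (SE 0.19) and Ndufa4l2 at 0.28 (SE 0.24), both at an adjusted p of 0.9999. Of the 84 intervals, 64 lay inside a 1.5-fold change. Without R14del-PLN LV replicate 3 the members' median was 0.062, without R14del-PLN RV replicate 3 it was 0.005, and without LV replicate 3 and RV replicate 2 it was 0.1, when 3 members had an unadjusted p under 0.05, all higher, against 2.46% of all genes higher.

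Other genes of the pathway were taken from 4 lists chosen with earlier results known, and none of their genes passed in any comparison. Of the 13 mitochondrially encoded subunits, the partners of these members in complexes I, III, IV and V, 12 lay above 0 in RV against LV of each genotype. Their medians were 0.15 for WT-PLN hearts and 0.10 for R14del-PLN hearts, and with upper-quartile scaling 0.36 and 0.20. With quantile normalization the medians were 0.047 and 0.050. On that scale only 8 genes in WT-PLN hearts and 9 in R14del-PLN hearts lay above 0, and 4 and 3 lay below. Of 52 genes tested from the list of assembly factors, 50 in WT-PLN hearts and 47 in R14del-PLN hearts lay below 0 in RV. Most genes of this list help build the complexes, but Ndufab1 is a subunit of complex I and Atpif1 inhibits complex V. The medians were -0.16 and -0.17, but with quantile normalization they were 0.034 and -0.039. All 13 genes of coenzyme Q synthesis lay below 0 in RV of each genotype, with medians of -0.15 and -0.11. With quantile normalization these were 0.032 and -0.003. On the scale of all TPM, assembly factors and coenzyme Q genes had medians slightly less negative than the all-gene median in WT-PLN hearts. In R14del-PLN hearts their medians were more negative than that of all genes. The 15 regulators of mitochondrial gene expression had medians of -0.036 and -0.072, which were 0.093 and 0.081 with mitochondrially encoded genes removed. Between genotypes the medians of the 4 lists ranged from -0.049 to 0.037 in LV and from -0.019 to 0.023 in RV.

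Markers of the labelled tissue were present. All 7 ventricular cardiomyocyte markers were listed, with sums of 32193 to 49096 TPM over the 12 samples, and Myh6 ranged from 3221 to 8262 TPM with its highest level in R14del-PLN RV replicate 2. Ucp1, the brown fat marker of the adipocyte list, was listed at 0 in 8 samples and at most at 0.0215 TPM in the others. Cidea, Adipoq and Plin1 of the same list were present in all samples. They lay at 11.8 to 22.4 TPM, 0.604 to 4.44 TPM and 0.177 to 1.97 TPM. The 4 atrial markers summed to 1296 TPM in WT-PLN LV replicate 3 and to 871 TPM in WT-PLN RV replicate 2, and to 45.6 to 521 TPM in R14del-PLN RV. The 5 red cell genes summed to 2087 to 2316 TPM in WT-PLN LV, 1461 to 1736 TPM in WT-PLN RV, 1093 to 2142 TPM in R14del-PLN LV and 956 to 1368 TPM in R14del-PLN RV. The part of these lists in the members' values was not tested.

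Upstream sequence was examined because respiratory chain genes are known targets of shared factors. NRF1 and ETS factors such as GABP bind the promoters of many respiratory genes, YY1 and the estrogen-related receptors (ERR) bind some of them, and RefSeq promoters of 250 bases before to 50 bases after the start (GRCm38.p6) were found for 67 members. Matches on either strand were counted as exact letters, and no motif holds another. GCATGCGC (NRF1) was found in 11 members or 16.4%, against 6.07% of the 9311 tested genes with a promoter and 3.05% of all 27025. CCGGAAG (ETS) was found in 16 or 23.9%, against 20.2% and 9.93%. AAGATGGCG (YY1) was found in 8 or 11.9%, against 3.72% and 1.64%, and TCAAGGTCA (ERR) in 2 or 2.99%, against 0.354% and 0.466%. Of the 67, 30 held at least 1 match. The 250 bases upstream of Cox6a1, which held the most matches, and of Cycs are given with matches in capitals, 5′ to 3′ on the gene's strand. In Cox6a1 the first capitals are 2 overlapping NRF1 matches, 1 on each strand, and the last are an ETS match on the other strand.
Cox6a1, chr5:115348959-115349208, minus strand: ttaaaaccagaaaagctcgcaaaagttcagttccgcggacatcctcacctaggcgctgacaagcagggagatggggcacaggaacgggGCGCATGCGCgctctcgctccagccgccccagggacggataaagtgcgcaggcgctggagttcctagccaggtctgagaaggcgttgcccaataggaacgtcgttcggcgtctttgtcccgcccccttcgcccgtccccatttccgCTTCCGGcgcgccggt
Cycs, chr6:50566570-50566819, minus strand: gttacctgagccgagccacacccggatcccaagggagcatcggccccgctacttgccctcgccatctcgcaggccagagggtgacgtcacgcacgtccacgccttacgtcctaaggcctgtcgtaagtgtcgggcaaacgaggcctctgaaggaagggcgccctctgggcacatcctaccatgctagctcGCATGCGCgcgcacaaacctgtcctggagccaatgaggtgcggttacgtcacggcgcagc
A match describes letters in the window and is not a bound site.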

How the data were processed

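PolyA-selected, stranded RNA libraries (TruSeq, Trizol-extracted RNA of frozen ventricles) from 12 samples were analysed, 3 in each of 4 groups taken from the sample labels. The titles call mutants KO, and they were read as R14del-PLN from their genotype label. The authors deposited TPM per gene. The methods name CLC Genomics Workbench and GRCm38 for the authors' own tests, and the program and annotation behind the deposited TPM are not given in the sources used here. The values of a sample sum to a fixed total, so depth is unknown and no counting error could be given.

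The members and lists were chosen with earlier results of these data known. Differences were tested with limma 3.58.1 in R 4.3.3 (group means, empirical Bayes with an intensity trend, 8 residual degrees of freedom) on log2(TPM + 1) over 12526 genes averaging 0.5 TPM or more. The pseudocount understates changes of low genes. Calls required 1.5-fold and an adjusted p (Benjamini-Hochberg, all genes) up to 0.05. The fit was tested on simulated data. Genes named were the highest and lowest member of each complex, the isoform pairs, the 2 members with the largest fold change in each comparison, the 2 with the smallest interaction p and any gene called, with members that share reads with copies. Others named were chosen after their values were seen. Copies were found with BLAST 2.17.0 in GENCODE M21 transcripts, 83 members had coordinates and 1 matched by an older symbol. Python 3.11.15 with numpy 2.4.6, pandas 2.3.3 and matplotlib 3.10.9 served for the rest.

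Whether replicate numbers pair LV and RV samples was checked by correlating deviations from group means. In WT-PLN hearts the 3 same-numbered pairs gave 0.321 to 0.657, against -0.457 to 0.000824 between other numbers. Same-numbered samples were read as likely pairs there. Deviations from a mean of 3 sum to 0, so high values for same numbers lower the others, which are no independent baseline. In R14del-PLN hearts the same-numbered pairs gave 0.0542 to 0.389, against -0.396 to 0.160 between other numbers, so the pairing was not shown. The main fit did not use the pairing, and the replicate number entered only as a block in the alternatives. The p-values of RV against LV given above are therefore unpaired. Nothing in the labels says that same-numbered samples share a mouse, and p-values measure the spread between these samples.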

Additional observations from a re-analysis of the deposited data

How the results depend on the processing

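No member was called in the main fit or under any of the alternatives, so no call of a member could change direction. The members' median did change sign under some settings. The number of all genes called was sensitive to the processing. In LV it moved from 65 to 22 with no filter, to 101 with quantile normalization and 101 with upper-quartile scaling, to 231 without both WT-PLN replicate 1 samples, and to 19 to 153 with single libraries left out. In RV it moved from 34 to 17, 85, 84 and 88 under the same settings, to 72 with mitochondrially encoded genes removed and to 14 to 48 with single libraries left out. In WT-PLN RV against LV it moved from 0 to 1 with no filter or with only the 6 samples of the comparison, to 2 with mitochondrially encoded genes removed, without both WT-PLN replicate 1 samples or without the 2 R14del-PLN samples that stand apart, and to 0 to 4 with single libraries left out. In R14del-PLN RV against LV and in the interaction the range was 0 to 1.

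The members' median log2 fold change in LV was 0.063 with upper-quartile scaling. In WT-PLN RV against LV it was -0.059 with mitochondrially encoded genes removed, 0.0196 with quantile normalization and 0.0125 with upper-quartile scaling. In R14del-PLN RV against LV it was -0.0598 with mitochondrially encoded genes removed, -0.0276 with quantile normalization and -0.0876 without the 2 samples that stand apart. In the interaction it was -0.156 with upper-quartile scaling and 0.1 without those 2 samples. With single libraries left out the medians ranged from -0.157 to -0.0171 in LV, -0.161 to -0.0553 in RV, -0.205 to -0.171 in WT-PLN RV against LV, -0.291 to -0.116 in R14del-PLN RV against LV and -0.109 to 0.0616 in the interaction. The cause of these changes was not tested.

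With the replicate number as a block, 119 genes were called in LV and 62 in RV, and 0 members in each comparison. The genotype pairs share only a number. As a random block of genotype and number, where the consensus correlation was 0.0885, the counts were 68 and 35. That block also joins R14del-PLN samples, whose pairing was not shown. Neither block changed a call of a member.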
